A study of Mus musculus with 27 samples.

Results

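The comparison described here is that of 3 hearts of the PTU+PHE+PRO group of set A with 3 hearts of the PHE+PRO group of set A, 6 of the 27 libraries of the series. They were chosen by the headings of the deposited count table. In these headings 2 PHE+PRO columns carry the same name, ending in 2, so both were read by their position and are called hearts 2a and 2b. All samples were labelled as heart, from CD-1 mice, an outbred strain, taken at postnatal day 14. In the PTU+PHE+PRO group the dam ate an iodine-deficient chow with 0.15% propylthiouracil (PTU), which stops the thyroid gland from making hormone, from E13.5 of gestation onwards. Pups of both groups were injected daily from postnatal day 1 with 10 ug per g of phenoxybenzamine (PHE), a blocker of alpha-adrenergic receptors, and 20 ug per g of propranolol (PRO), a blocker of beta-adrenergic receptors. The PTU chow was therefore the labelled difference between the groups, and the blockers were common to both. The chow of the PHE+PRO dams is not described here. A PTU effect below is that of PTU in iodine-deficient chow, and the part of low iodine was not tested. Later tests also use PTU+PHE and PHE hearts of set A and PTU, saline, PTU+PRO and PRO hearts of set B, all of postnatal day 14. Where these names hold PTU, PHE or PRO, the dose and the starting day were those given above. For the PTU and saline groups of set B no first day of injection is recorded. The question is which cardiac transcripts depend on thyroid hormone when both arms of adrenergic signalling are blocked.

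Thyroid hormone enters heart cells through membrane transporters and binds the nuclear receptors encoded by Thra and Thrb, which pair with retinoid X receptors on DNA motifs of the form AGGTCA. In rodents the hormone surge after birth brings the exchange of fetal for adult contractile proteins, raises calcium pumping and ion channel expression, and accompanies the end of cardiomyocyte division. Noradrenaline and adrenaline act in the same cells through beta receptors, which raise cyclic AMP, and through alpha receptors, which raise intracellular calcium.

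The 3 PTU+PHE+PRO libraries held 62134596, 43578870 and 30791885 reads assigned to genes, and the 3 PHE+PRO libraries held 52747151, 46061991 and 42017505. Each group had 1 female and 2 male hearts by Xist and Y-linked reads. Across genes, log2 expression correlated at 0.973 to 0.977 among PTU+PHE+PRO hearts, 0.984 to 0.986 among PHE+PRO hearts and 0.938 to 0.961 between the groups. In PTU+PHE+PRO heart 2 long transcripts (exons over 8000 bases) stood 0.87 log2 units lower than short ones (under 1000 bases) relative to the mean of all 27 libraries. That difference was -0.28 and -0.06 in the other PTU+PHE+PRO hearts and -0.37 to -0.04 in PHE+PRO hearts. PTU+PHE+PRO heart 3 was high in Lars2, which encodes a mitochondrial leucyl-tRNA synthetase, and in the noncoding genes Mir6236 and Malat1. It had 5686, 385 and 2542 CPM of these, against at most 731, 64.6 and 1210 CPM in any other of the 6 hearts. CPM are read counts scaled to the library's total as adjusted by TMM normalisation. Gm26917 and Gm15564 were also high in heart 3, with 780 and 82.17 CPM, against at most 120 and 18.65 CPM in any other heart. Whether the reads counted at Lars2 stem from its own transcript was not tested. The part of either heart's profile in the results was not tested beyond the values without that heart given beside them. Lars2 rose by 3.28 ± 0.76 (adjusted p = 0.0017) and by 1.46 (adjusted p = 0.041) without heart 3.

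A large share of the measured genes differed between the groups. Of 19119 genes tested, 8987 (47.0%) were called at an adjusted p under 0.05 by edgeR's quasi-likelihood test, with 4724 (24.7%) higher and 4263 (22.3%) lower in PTU+PHE+PRO hearts. Of these, 1836 were at least 2-fold higher and 1669 at least 2-fold lower, while the median log2 fold change of all tested genes was 0.04. Counts of list members that rose or fell, given below, are to be read beside these shares of all genes. The CPM of the 3 PTU+PHE+PRO hearts did not overlap those of the 3 PHE+PRO hearts in 8626 genes (45.1%). A fit of these 6 libraries alone called 5043 genes. Each group had 3 animals, but their litters are not given, and PTU and litter cannot be told apart. In RNA of heart tissue, fewer cells of a type and less RNA per cell cannot be told apart either.

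**Figure D1:**
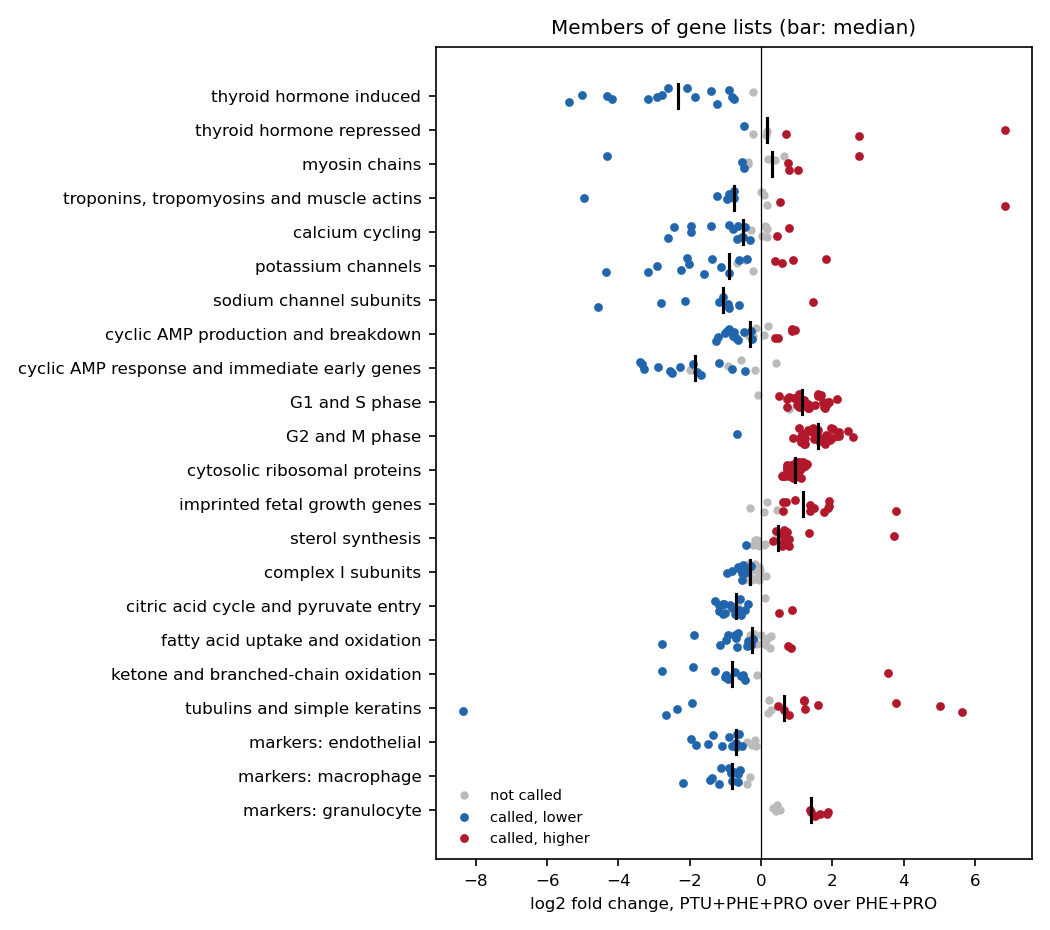
Log2 fold changes, PTU+PHE+PRO over PHE+PRO, of the tested members of 22 gene lists (horizontal axis); each point is a gene, red for called higher, blue for called lower and grey for not called, and the black bar is the list's median. Thyroid hormone induced genes and immediate early genes lie mainly left of 0 (medians -2.34 and -1.85), and G2 and M phase genes right of it (median 1.59).

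Genes that thyroid hormone is known to induce were low in the PTU+PHE+PRO hearts. The list of these genes, like the other lists, was chosen with earlier results of these data known. Of 16 such genes tested, 15 fell and none rose, with a median log2 fold change of -2.34 against 0.04 over all genes. The exception, Me1 (malic enzyme), had 48.6, 56.2 and 63.0 CPM in PTU+PHE+PRO hearts, against 62.3, 55.9 and 77.9 CPM in PHE+PRO hearts, and missed the threshold (-0.23 ± 0.13, standard error (SE), adjusted p = 0.17), though without PHE+PRO heart 2a it was lower by the same test (-0.35, adjusted p = 0.05). Hr, a corepressor gene that the hormone switches on directly, had 2.72, 2.42 and 1.47 CPM in PTU+PHE+PRO hearts, against 75.0, 74.1 and 71.7 CPM in PHE+PRO hearts, a log2 fold change of -5.03 ± 0.27 (adjusted p = 2.3e-12). Klf9, a transcription factor gene induced by thyroid hormone and by glucocorticoids, had 7.42, 2.20 and 4.72 CPM, against 91.9, 78.9 and 95.9 CPM in PHE+PRO hearts (-4.19 ± 0.34, adjusted p = 3.4e-09). For both genes the lowest PHE+PRO heart was far above the highest PTU+PHE+PRO heart.

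The receptors themselves moved in opposite directions. Thrb, the beta receptor gene, had 1.28, 0.91 and 1.5 CPM in PTU+PHE+PRO hearts, against 24.5, 21.9 and 24.9 CPM in PHE+PRO hearts (-4.28 ± 0.19, adjusted p = 3.7e-14). Thra, the alpha receptor gene, had 236, 240 and 209 CPM, against 140, 144 and 142 CPM in PHE+PRO hearts (0.69 ± 0.08, adjusted p = 5.5e-07). Of 7 genes that the hormone is known to repress, 3 rose (Tnni1, Myh7 and Thra) and 1 fell, Adcy5, a cardiac adenylyl cyclase gene (-0.47 ± 0.13, adjusted p = 0.0058). Of 16 tested genes of hormone reception, transport and deiodination, 5 rose and 7 fell. Slc16a10, a transporter gene, fell (-0.98 ± 0.10, adjusted p = 7.2e-08). The deiodinase genes Dio1 and Dio3 had 1 and 7 reads in all 6 hearts together and were not tested.

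The promoter windows of Hcn2, a pacemaker channel gene, and of Thrb are shown because these are the called thyroid hormone genes of smallest p that hold an AGGTCA motif. The sequences are from RefSeq on GRCm38.p6, 5′ to 3′ on the gene's strand, from 250 bases before the start of transcription to 50 after it, with AGGTCA, on either strand, in capitals. The Hcn2 window lies at chr10:79716384-79716683 on the + strand and holds 2 of them, 249 and 168 bases before the start, both on the opposite strand. The Thrb window lies at chr14:17660710-17661009 on the + strand, is 1 of 2 windows listed for that gene, and holds 1 184 bases before the start.
Hcn2: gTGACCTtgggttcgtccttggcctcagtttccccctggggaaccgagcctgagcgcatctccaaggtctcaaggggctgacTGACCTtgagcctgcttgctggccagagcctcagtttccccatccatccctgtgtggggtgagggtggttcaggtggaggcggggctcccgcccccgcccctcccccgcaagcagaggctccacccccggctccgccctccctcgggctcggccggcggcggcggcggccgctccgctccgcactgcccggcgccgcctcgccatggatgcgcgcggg
Thrb: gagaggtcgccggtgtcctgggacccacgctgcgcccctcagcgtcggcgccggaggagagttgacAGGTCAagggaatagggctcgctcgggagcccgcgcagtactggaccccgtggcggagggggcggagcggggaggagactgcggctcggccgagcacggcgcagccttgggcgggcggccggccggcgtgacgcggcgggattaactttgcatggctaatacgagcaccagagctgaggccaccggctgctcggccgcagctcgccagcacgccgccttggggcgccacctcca
AGGTCA occurred in 6 of 37 windows (16.2%) of the thyroid hormone genes, against 5340 of 32851 windows (16.3%) of all genes. Of the 38 tested genes on these lists, 29 had a window in the table. A pair of AGGTCA motifs in the same direction with 4 bases between them occurred in none of the 37 windows and in 5 of all windows (0.0152%).

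Transcripts of troponin I and myosin heavy chain shifted from adult towards fetal forms. Tnni1, the slow skeletal troponin I gene that the fetal heart uses (chr1:135779434-135810989), had 2389, 3557 and 2287 CPM in PTU+PHE+PRO hearts, against 27.9, 19.9 and 24.1 CPM in PHE+PRO hearts. It was the largest rise among the named genes, at 6.84 ± 0.39 log2 units (adjusted p = 9.8e-12). Tnni3, the adult cardiac troponin I gene, had 2283, 3317 and 1998 CPM, against 3701, 4894 and 4194 CPM in PHE+PRO hearts (-0.75 ± 0.15, adjusted p = 0.00026). Per kilobase of exon, Tnni1 made up 37.5%, 38.1% and 39.6% of the reads of both genes in PTU+PHE+PRO hearts, against 0.430%, 0.233% and 0.329% in PHE+PRO hearts.

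The 2 myosin heavy chain transcripts changed places as the main form. Myh6, the fast alpha chain of the adult mouse ventricle (chr14:54941921-54966927), had 2393, 1473 and 1704 CPM in PTU+PHE+PRO hearts, against 36122, 36054 and 38322 CPM in PHE+PRO hearts (-4.31 ± 0.18, adjusted p = 1.6e-14). Myh7, the slow beta chain of the fetal ventricle (chr14:54970684-54994626), had 12576, 8942 and 9761 CPM, against 1413, 1609 and 1613 CPM in PHE+PRO hearts (2.75 ± 0.14, adjusted p = 3.9e-13). Per kilobase of exon, Myh7 took 81.6% ± 1.09 of the reads of both genes in PTU+PHE+PRO hearts and 3.17% ± 0.202 in PHE+PRO hearts (SD, n = 3 each). For both pairs of genes the exact two-sided permutation test over hearts gave p = 0.1, the smallest that 3 against 3 hearts allow. Myh6 and Myh7 share long stretches of near-identical sequence, and how reads matching both were counted is not given in the sources used here.

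**Figure D2:**
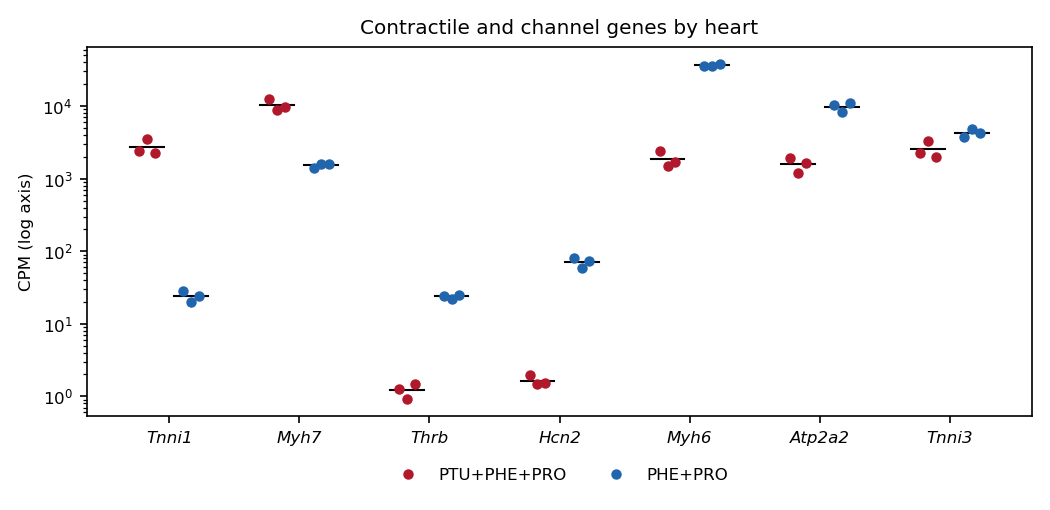
CPM by heart (log axis) of contractile, pump, channel and receptor genes; each point is 1 heart, red for PTU+PHE+PRO and blue for PHE+PRO, and black bars are group means (n = 3 each). Tnni1 and Myh7 lie higher, and Thrb, Hcn2, Myh6, Atp2a2 and Tnni3 lower, in PTU+PHE+PRO hearts, with no overlap between the groups.

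Other sarcomere genes moved unevenly. Of 12 myosin chain and myosin-binding genes, 4 rose and 3 fell, and of 13 troponin, tropomyosin and muscle actin genes, 2 rose and 7 fell (median -0.75). Among all genes 24.7% rose and 22.3% fell. Acta1, the skeletal alpha-actin gene that is also active in the young heart, had 9.09, 9.03 and 9.27 CPM in PTU+PHE+PRO hearts, against 457, 197 and 198 CPM in PHE+PRO hearts (-4.96 ± 0.47, adjusted p = 5.7e-08). It thus moved opposite to Tnni1 and Myh7, although all are expressed in the fetal heart. Tpm1, the main cardiac tropomyosin gene, had 4453, 5730 and 4051 CPM, against 9977, 12657 and 11210 CPM in PHE+PRO hearts (-1.25 ± 0.13, adjusted p = 3.6e-08). Tnnt2 (0.16 ± 0.11, adjusted p = 0.23) and Tnnc1 (-0.00 ± 0.15, adjusted p = 0.99), the cardiac troponin T and C genes, were not called, and Tnnc1 changed sign between alternatives. Myl2, the ventricular regulatory light chain gene, rose by 0.76 ± 0.17 (adjusted p = 0.00091), with 12448, 23197 and 12461 CPM in PTU+PHE+PRO hearts, against 8273, 10457 and 9612 CPM in PHE+PRO hearts. Its rise was 0.38 (adjusted p = 0.018) without PTU+PHE+PRO heart 2, where it was highest.

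Mir208b, a microRNA gene that lies within Myh7, had 0.828, 0.383 and 1.29 CPM in PTU+PHE+PRO hearts, against 34.6, 39.0 and 36.7 CPM in PHE+PRO hearts (-5.49 ± 0.33, adjusted p = 1.5e-11), opposite to Myh7. Its precursor spans 77 bases, the library kit does not keep the strand, and reads there cannot be told from those of transcripts that overlap it.

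Genes of calcium cycling and of electrical activity fell more often than they rose. Of 21 calcium cycling genes, 13 fell and 2 rose (median -0.50). Atp2a2, which encodes the SERCA2 calcium pump, had 1944, 1210 and 1669 CPM in PTU+PHE+PRO hearts, against 10350, 8186 and 11088 CPM in PHE+PRO hearts (-2.62 ± 0.14, adjusted p = 1.4e-12). Ryr2, the calcium release channel gene (-1.40 ± 0.21, adjusted p = 9.7e-06), and Hrc, which encodes a calcium-binding protein of the sarcoplasmic reticulum (-1.96 ± 0.12, adjusted p = 1.0e-11), also fell. Pln, which encodes the SERCA2 inhibitor phospholamban, had 1327, 1369 and 1163 CPM, against 1149, 1147 and 1150 CPM in PHE+PRO hearts, and was not called (0.16 ± 0.11, adjusted p = 0.23). Calcium pump and inhibitor transcripts therefore did not move together.

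Hcn2 had 1.94, 1.48 and 1.52 CPM in PTU+PHE+PRO hearts, against 79.4, 58.4 and 73.7 CPM in PHE+PRO hearts, and its fall had the smallest adjusted p of the named genes (-5.39 ± 0.17, adjusted p = 2.2e-16). All 9 sodium channel genes were called, 8 lower and 1 higher (median -1.06), and 12 of 19 potassium channel genes fell while 4 rose (median -0.91). The genes of the transient outward potassium current fell together: Kcnd2 (-3.18 ± 0.30, adjusted p = 1.8e-08), Kcnd3 (-2.91 ± 0.22, adjusted p = 2.6e-10) and Kcnip2, their accessory subunit gene (-1.60 ± 0.18, adjusted p = 1.3e-07). Lrtm1, a gene for a membrane protein with leucine-rich repeats, fell by 5.95 ± 0.63 (adjusted p = 3.6e-07).

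Nearly all cell division genes listed were higher. Of 32 genes of G1 and S phase, 30 rose and none fell (median 1.15), and of 36 genes of G2 and M phase, 35 rose and 1 fell (median 1.59). These counts were 29 to 31 and 35 when any 1 of the 6 hearts was left out. Cdk1, the kinase that drives mitosis, had 29.5, 48.2 and 35.6 CPM in PTU+PHE+PRO hearts, against 8.54, 10.6 and 9.92 CPM in PHE+PRO hearts (1.96 ± 0.25, adjusted p = 9.4e-07). Ube2c, a ubiquitin-conjugating enzyme gene of mitotic exit, had 26.9, 39.6 and 24.1 CPM, against 4.82, 6.38 and 5.49 CPM in PHE+PRO hearts (2.44 ± 0.29, adjusted p = 5.8e-07). Cenpa, which encodes the histone variant of centromeres, was the exception, with 30.0, 44.8 and 32.3 CPM, against 58.3, 57.0 and 56.3 CPM in PHE+PRO hearts (-0.68 ± 0.11, adjusted p = 2.7e-05). Summed over the G2 and M phase list, PTU+PHE+PRO hearts held 651 to 800.2 CPM and PHE+PRO hearts 289 to 304 CPM. Cdk1 and Cenpa were named after their values were seen.

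Windows of Cdc25b, a mitotic phosphatase gene, and of Racgap1, which is needed for cytokinesis, are shown because these are the called G2 and M phase genes of smallest p with a CCAAT box or the motif TTTGAA, both of which occur in promoters of mitotic genes. Capitals mark the motifs on either strand. The Cdc25b window (chr2:131186698-131186997, + strand) holds 1 CCAAT box on the opposite strand, 28 bases before the start. The Racgap1 window (chr15:99651607-99651906, - strand) holds a CCAAT box on the opposite strand 12 bases before the start and a TTTGAA 5 bases after it.
Cdc25b: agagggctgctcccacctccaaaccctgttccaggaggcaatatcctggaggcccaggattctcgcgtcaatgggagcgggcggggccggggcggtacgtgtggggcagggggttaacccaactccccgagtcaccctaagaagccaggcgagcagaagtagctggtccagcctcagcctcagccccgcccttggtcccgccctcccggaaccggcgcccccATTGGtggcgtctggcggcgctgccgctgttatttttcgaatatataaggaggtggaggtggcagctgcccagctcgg
Racgap1: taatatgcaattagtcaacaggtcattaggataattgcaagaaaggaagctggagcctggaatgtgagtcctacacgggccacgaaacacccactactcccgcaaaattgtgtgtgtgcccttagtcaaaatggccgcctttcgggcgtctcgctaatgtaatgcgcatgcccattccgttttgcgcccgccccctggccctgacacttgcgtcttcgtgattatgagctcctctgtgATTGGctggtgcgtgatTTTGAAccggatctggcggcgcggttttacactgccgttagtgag
A CCAAT box occurred in 27 of 32 windows (84.4%) of the 30 list members that had one, against 37.4% of all 32851 windows. TTTGAA occurred in 24 of these windows (75.0%), against 17.9% of all windows.

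Cell cycle exit genes did not fall as a group. Of 16, 5 rose and 1 fell (median 0.15), where 24.7% of all genes rose and 22.3% fell. The risers included the kinase inhibitor genes Cdkn2c (0.98 ± 0.11, adjusted p = 1.2e-07) and Cdkn2d (0.62 ± 0.14, adjusted p = 0.00078, and 0.41 without PTU+PHE+PRO heart 2). Imprinted genes of fetal growth were higher: 12 of 16 rose and none fell (median 1.17). H19, a long noncoding RNA of the fetal period, had 681, 658 and 630 CPM in PTU+PHE+PRO hearts, against 174, 179 and 171 CPM in PHE+PRO hearts (1.91 ± 0.12, adjusted p = 1.5e-11). Igf2, its neighbour and a fetal growth factor gene, had 817, 906 and 877 CPM, against 333, 315 and 356 CPM in PHE+PRO hearts (1.37 ± 0.10, adjusted p = 6.0e-11). Dlk1, an imprinted gene of the Notch ligand family, had 26.7, 15.2 and 26.9 CPM, against 1.16, 1.52 and 2.36 CPM in PHE+PRO hearts (3.78 ± 0.59, adjusted p = 2.3e-05).

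Genes for cytosolic ribosomal proteins rose almost without exception, 33 of 34, with a median of 0.95. Rpl3 had 408, 595 and 356 CPM in PTU+PHE+PRO hearts, against 167, 179 and 232 CPM in PHE+PRO hearts (1.23 ± 0.22, adjusted p = 8.8e-05). The list's summed level was 10990 to 21417 CPM in PTU+PHE+PRO hearts and 7074 to 8906 CPM in PHE+PRO hearts. The highest sum was in PTU+PHE+PRO heart 2, in which short transcripts were high, and without that heart 19 of the 34 genes were called higher. With an offset for transcript length the count was 33. Eef1a1, the translation elongation factor gene, had 4380, 5552 and 4021 CPM, against 1632, 1485 and 2024 CPM in PHE+PRO hearts (1.44 ± 0.19, adjusted p = 1.1e-06).

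Cytoskeletal genes held some of the extremes. Krt18, a simple-epithelium keratin gene also expressed in the embryonic heart, had 30.4, 52.8 and 35.3 CPM in PTU+PHE+PRO hearts, against 0.931, 0.529 and 0.901 CPM in PHE+PRO hearts (5.64 ± 0.33, adjusted p = 7.0e-12). Tubb2b, a developmental beta-tubulin gene, rose by 3.79 ± 0.19 (adjusted p = 5.2e-13). Tuba8, an alpha-tubulin gene of adult striated muscle, had 0.226, 0.623 and 0.264 CPM, against 126, 119 and 109 CPM in PHE+PRO hearts (-8.36 ± 0.43, adjusted p = 3.2e-12). In the tubulin and keratin list as a whole, 10 of 17 genes rose and 4 fell (median 0.65).

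Transcription factor and signalling genes of the embryonic heart moved in both directions. Of 19 cardiac transcription factor genes, 10 rose and 3 fell (median 0.35). Hey2, a Notch target gene of compact ventricular muscle, had 31.3, 33.1 and 33.2 CPM in PTU+PHE+PRO hearts, against 6.47, 4.55 and 5.52 CPM in PHE+PRO hearts (2.56 ± 0.14, adjusted p = 1.7e-12). Nkd2, an inhibitor of Wnt signalling, had 120, 164 and 114 CPM, against 6.47, 5.90 and 5.99 CPM in PHE+PRO hearts (4.43 ± 0.26, adjusted p = 5.7e-12). Bmp7 (2.55 ± 0.19, adjusted p = 2.5e-10) and Cited1, a transcriptional coregulator gene (3.80 ± 0.29, adjusted p = 4.1e-10), were also higher. Within the list of Wnt, BMP and Notch genes, 13 of 27 fell and 7 rose (median -0.43). Other large rises were Grik3, a glutamate receptor gene (5.17 ± 0.38, adjusted p = 2.6e-10), Bex4 (4.14 ± 0.40, adjusted p = 1.8e-08), Rxfp1, the relaxin receptor gene (3.67 ± 0.42, adjusted p = 5.9e-07), Pcbd1 (3.63 ± 0.27, adjusted p = 1.5e-10) and Mt3 (3.59 ± 0.65, adjusted p = 0.00014). In Mt3 the 3 PTU+PHE+PRO hearts differed among themselves, with 13.47, 15.7 and 1.96 CPM, against 0.579, 1.49 and 0.530 CPM in PHE+PRO hearts.

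Some genes were nearly silent in the PTU+PHE+PRO hearts. Foxo6os had 0, 0.0479 and 0.0293 CPM (3 reads in all), against 12.2, 11.1 and 12.2 CPM in PHE+PRO hearts. With so few reads its fold is not given. Klhl33 had 0.105, 0.0239 and 0.0587 CPM, against 8.21, 11.7 and 12.3 CPM in PHE+PRO hearts. Itgb6, an integrin subunit gene (-6.79 ± 0.30, adjusted p = 3.7e-14), Rtn4r, the Nogo receptor gene (-6.41 ± 0.31, adjusted p = 1.6e-13), Art1, an ADP-ribosyltransferase gene of muscle (-6.35 ± 0.30, adjusted p = 3.0e-13), Smco1 (-6.19 ± 0.36, adjusted p = 5.5e-12), Pnpla3, a lipase gene (-6.18 ± 0.35, adjusted p = 1.7e-12), and Lrrc15 (-6.08 ± 0.27, adjusted p = 4.5e-14) fell by similar amounts. None of these genes had more than 1.63 CPM in any PTU+PHE+PRO heart.

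Energy metabolism was lower in several branches, but not evenly. Of 23 genes of the citric acid cycle and pyruvate entry, 19 fell and 2 rose (median -0.71), and of 12 genes of ketone body and branched-chain amino acid oxidation, 10 fell and 1 rose (median -0.82). Oxct1, the enzyme gene through which the heart uses ketone bodies, had 139, 68.6 and 80.9 CPM in PTU+PHE+PRO hearts, against 745, 617 and 636 CPM in PHE+PRO hearts (-2.79 ± 0.19, adjusted p = 6.4e-11). Of 28 genes of glucose uptake, glycolysis and glycogen, 15 fell and 2 rose (median -0.52). The insulin-responsive glucose transporter gene Slc2a4 (-1.84 ± 0.14, adjusted p = 3.2e-10) and the hexokinase gene Hk2 (-2.26 ± 0.10, adjusted p = 3.7e-14) were both lower. Of 11 creatine and high-energy phosphate genes, 6 fell and 2 rose, with Ckmt2, the mitochondrial creatine kinase gene, at 590, 409 and 320 CPM, against 1864, 2190 and 1798 CPM in PHE+PRO hearts (-2.15 ± 0.16, adjusted p = 3.0e-10).

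Fatty acid genes and the respiratory chain were less uniform. Of 30 genes of fatty acid uptake and oxidation, 13 fell and 2 rose (median -0.26), with Cpt2, the carnitine palmitoyltransferase gene of the inner membrane, at -1.15 ± 0.11 (adjusted p = 7.7e-09) and Ppara, the fatty acid sensing nuclear receptor gene, at -1.89 ± 0.20 (adjusted p = 4.4e-08). Of 32 complex I subunit genes, 11 fell and none rose (median -0.31), and of 40 nuclear genes of complexes II to V, 16 fell and 2 rose (median -0.23). These 2 counts of falls were 28 and 29 without PTU+PHE+PRO heart 2, and 26 and 26 with an offset for transcript length. The complex I count was 6 without PTU+PHE+PRO heart 1, 6 without heart 3 and 7 without PHE+PRO heart 2a. Of the 13 protein genes of the mitochondrial genome, 7 fell, and mitochondrial genes took 12.5%, 15.1% and 13.6% of reads in PTU+PHE+PRO hearts, against 16.8%, 16.5% and 16.4% in PHE+PRO hearts (exact permutation p = 0.1, two-sided). Of 24 sterol synthesis genes, 13 rose and 1 fell (median 0.49), 8 rising without PTU+PHE+PRO heart 1 and 8 without PHE+PRO heart 2a. Lss, the lanosterol synthase gene, was the sterol gene of smallest p (1.33 ± 0.12, adjusted p = 2.8e-09).

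Adrenergic receptor genes and their messengers were lower in part. Of 17 genes of adrenergic receptors and desensitisation, 8 fell and 2 rose (median -0.38). Adrb1, the main beta receptor gene of the heart, had 21.6, 9.70 and 8.71 CPM in PTU+PHE+PRO hearts, against 29.3, 21.2 and 25.6 CPM in PHE+PRO hearts (-0.91 ± 0.22, adjusted p = 0.0015). PTU+PHE+PRO heart 1 lay within the PHE+PRO range, and the fall was -1.47 (adjusted p = 5.3e-08) without it. Rgs4, which shortens G protein signals, fell by 2.56 ± 0.15 (adjusted p = 4.1e-12). Of 22 genes of cyclic AMP production and breakdown, 12 fell and 5 rose (median -0.32).

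Immediate early genes, which respond within minutes to cyclic AMP, calcium and growth signals, were the signalling list with the lowest median. Of 18, 13 fell and none rose (median -1.85). Dusp1, a phosphatase gene that ends MAP kinase signals, had 79.5, 42.0 and 34.7 CPM in PTU+PHE+PRO hearts, against 198, 248 and 145 CPM in PHE+PRO hearts (-1.91 ± 0.29, adjusted p = 1.4e-05). Nr4a1, an orphan nuclear receptor gene, had 68.5, 29.9 and 27.5 CPM, against 201, 267 and 469 CPM in PHE+PRO hearts (-2.89 ± 0.61, adjusted p = 0.00074). Sik1, a kinase gene induced by cyclic AMP, had 78.3, 26.9 and 40.1 CPM, against 171, 234 and 301 CPM in PHE+PRO hearts (-2.28 ± 0.43, adjusted p = 0.00022). Fos (-2.00 ± 0.90, adjusted p = 0.076), Jun (-0.18 ± 0.36, adjusted p = 0.71) and Atf3 (0.42 ± 0.93, adjusted p = 0.74), named after their values were seen, were not called. PHE+PRO heart 2b was the highest in Nr4a1 and Sik1. Left out in turn, no heart brought the count below 11.

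Markers of mechanical load did not move as 1 group. Ankrd1, a stretch-responsive gene of cardiomyocytes, had 1125, 2681 and 2335 CPM in PTU+PHE+PRO hearts, against 591, 306 and 407 CPM in PHE+PRO hearts (2.24 ± 0.29, adjusted p = 1.7e-06). Nppb, the B-type natriuretic peptide gene, had 177, 609 and 302 CPM, against 168, 94.8 and 60 CPM in PHE+PRO hearts (1.75 ± 0.47, adjusted p = 0.0045). Nppa, the A-type peptide gene, named after its values were seen, was not called (0.92 ± 0.89, adjusted p = 0.42). Of the 10 genes of this list, 2 rose and 4 fell, where 24.7% of all genes rose and 22.3% fell.

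Matrix genes moved unevenly, and most endothelial and macrophage markers were lower. Of 18 collagen genes, 8 fell and none rose (median -0.34), and 13 fell without PTU+PHE+PRO heart 1. Col4a1, a basement membrane collagen gene, had 1103, 683 and 1040 CPM in PTU+PHE+PRO hearts, against 2196, 2363 and 2065 CPM in PHE+PRO hearts (-1.23 ± 0.14, adjusted p = 1.9e-07). Of 30 further genes for matrix proteins, laminins and integrins, 14 fell, 5 rose and 11 were not called (median -0.35). Postn, which encodes the matrix protein periostin, rose, with 642, 432 and 634 CPM, against 340, 310 and 290 CPM in PHE+PRO hearts (0.86 ± 0.14, adjusted p = 2.0e-05). Endothelial markers fell in 13 of 17 cases and rose in none (median -0.70), and macrophage markers fell in 12 of 15 and rose in none (median -0.82). The summed endothelial markers were 2217 to 2466 CPM in PTU+PHE+PRO hearts and 3666 to 4498 CPM in PHE+PRO hearts, while the summed macrophage markers were 130 to 143 CPM in PTU+PHE+PRO hearts and 231 to 251 CPM in PHE+PRO hearts. The part of cell composition in the matrix result was not tested.

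Other marker lists showed the makeup of the samples. Cardiomyocyte markers summed to 53603 to 74321 CPM in PTU+PHE+PRO hearts and 68571 to 75715 CPM in PHE+PRO hearts, with 1 of 10 called higher and 4 lower. The atrial markers Myl7 and Sln were scarce for tissue labelled as heart. Myl7, the atrial light chain gene, had at most 0.674 CPM in PTU+PHE+PRO hearts and 0.529 CPM in PHE+PRO hearts. Sln had 12 reads in all 6 hearts. Other atrial markers were not scarce, among them Nppa with 103 to 388 CPM and Tbx5 with 16.5 to 26.3 CPM over the 6 hearts. Of the atrial list Myl4, Dkk3 and Bmp10 were called higher and Kcnj3 lower. Granulocyte markers rose in 6 of 10 cases (median 1.39), with sums of 31.2 to 98.7 CPM in PTU+PHE+PRO hearts and 14.2 to 29.4 CPM in PHE+PRO hearts, and 3 rose without PTU+PHE+PRO heart 3 or without PHE+PRO heart 1. Epicardial markers summed to 139 to 166 CPM in PTU+PHE+PRO hearts and 62.9 to 74.2 CPM in PHE+PRO hearts, with Krt18, also on that list, giving 30.4 to 52.8 CPM of the PTU+PHE+PRO sums. Wt1, the defining epicardial gene, named after its values were seen, had 9.60 to 15.3 CPM in PTU+PHE+PRO hearts and 19 to 23 CPM in PHE+PRO hearts. The defining markers of skeletal muscle (Myh4), thymus (Rag1) and lung (Sftpc) had 11, 13 and 7 reads in the 6 hearts. Dbh, the noradrenaline-synthesising enzyme gene of sympathetic nerves, had 2.92, 1.17 and 1.29 CPM in PTU+PHE+PRO hearts, against 14.9, 20.1 and 25.3 CPM in PHE+PRO hearts (-3.44 ± 0.31, adjusted p = 5.6e-09).

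Whether the PTU effect was the same without propranolol was tested against the PTU effect under phenoxybenzamine alone (PTU+PHE over PHE, set A), which shares no library with the present comparison. The 2 effects differed in 200 of 19119 genes (1.05%), 90 with a higher and 110 with a lower value under both blockers. The count depended on the fit. It was 11 when set A was fitted alone, 9 with only the 12 libraries compared and 581 with DESeq2, and 69 to 633 when a library was left out. The 3 PHE hearts were all male, while the other 3 groups held both sexes. No difference was called for the main myosin and troponin genes, with Myh6 at -4.31 under both blockers and -3.91 under phenoxybenzamine, and Tnni1 at 6.84 under both blockers and 6.07 under phenoxybenzamine. Some sparse or minor contractile genes did differ, among them Myh8, a perinatal myosin gene with 269 reads in PTU+PHE+PRO hearts and 8 in PHE+PRO hearts (difference adjusted p = 0.047), Myl4, an atrial light chain gene (0.99, adjusted p = 0.045), and Myom3, an M-band gene (1.38, adjusted p = 0.036), all named after their values were seen.

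Among genes averaging at least 5 CPM over the 12 hearts, Nr4a1 had the lowest difference (-4.17 ± 0.84, adjusted p = 0.024). It had 49.6, 47.7 and 24.3 CPM in PTU+PHE hearts, against 24.4, 12.8 and 12.7 CPM in PHE hearts, beside the PTU+PHE+PRO and PHE+PRO values given above. The PTU+PHE+PRO and PTU+PHE values overlapped, whereas every PHE+PRO heart was above every PHE heart. Sik1 had the same arrangement, with 52.3, 49.6 and 34.2 CPM in PTU+PHE hearts, against 29.8, 27.7 and 36.6 CPM in PHE hearts (difference -2.81 ± 0.59, adjusted p = 0.026). Apold1, an early response gene of endothelium, had 19, 15.5 and 16.0 CPM in PTU+PHE+PRO hearts, against 59.9, 87.2 and 72.6 CPM in PHE+PRO hearts, and 30.0, 23.4 and 14.8 CPM in PTU+PHE hearts, against 18.3, 19.8 and 20.9 CPM in PHE hearts (difference -2.33 ± 0.42, adjusted p = 0.010). Cdkn1a, the p21 cell cycle inhibitor gene, was not called under both blockers (0.03, adjusted p = 0.94) and rose by 2.18 under phenoxybenzamine (difference -2.15 ± 0.34, adjusted p = 0.0030). Its 3 PHE hearts had 11.7, 28 and 18.8 CPM, below all other hearts of the 4 groups.

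Among genes averaging at least 5 CPM over the 12 hearts, Ankrd1 had the highest difference (2.42 ± 0.39, adjusted p = 0.0038). It had 862, 722 and 1458 CPM in PTU+PHE hearts, against 1215, 1168 and 1073 CPM in PHE hearts, an effect of -0.18 (adjusted p = 0.64). Ccn2, a connective tissue growth factor gene, had 268, 419 and 429 CPM in PTU+PHE+PRO hearts, against 91.1, 74.7 and 96.1 CPM in PHE+PRO hearts, and 108, 138 and 155 CPM in PTU+PHE hearts, against 179, 130 and 108 CPM in PHE hearts (difference 2.15 ± 0.48, adjusted p = 0.032). Rasl11b, a small GTPase gene (2.23 ± 0.32, adjusted p = 0.0015), Prune2 (2.40 ± 0.35, adjusted p = 0.0015), Rrm2, a ribonucleotide reductase gene of S phase (1.87 ± 0.42, adjusted p = 0.034), and Ccdc194 (1.78 ± 0.39, adjusted p = 0.026) followed. The PTU effect on Prune2 was 0.63 (adjusted p = 0.039) under both blockers and -1.77 (adjusted p = 5.9e-06) under phenoxybenzamine. Its 3 PHE hearts had 44.2, 60.4 and 34.7 CPM, above all other hearts of the 4 groups. Fam222a (-2.38 ± 0.45, adjusted p = 0.014) and Gem, a small GTPase gene (-2.37 ± 0.55, adjusted p = 0.036), completed the named genes with a lower value. With each library left out in turn, Ankrd1, Prune2, Rasl11b, Fam222a, Apold1 and Cdkn1a were called every time, and the other 6 of the 12 genes missed the threshold at least once. Prune2, Rasl11b and Apold1 were still called when set A was fitted alone, and Prune2, Ccn2 and Apold1 with only the libraries compared. Of the 18 immediate early genes, 3 differed, all lower under both blockers, and none did with only the libraries compared or without PTU+PHE heart 1.

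**Figure D3:**
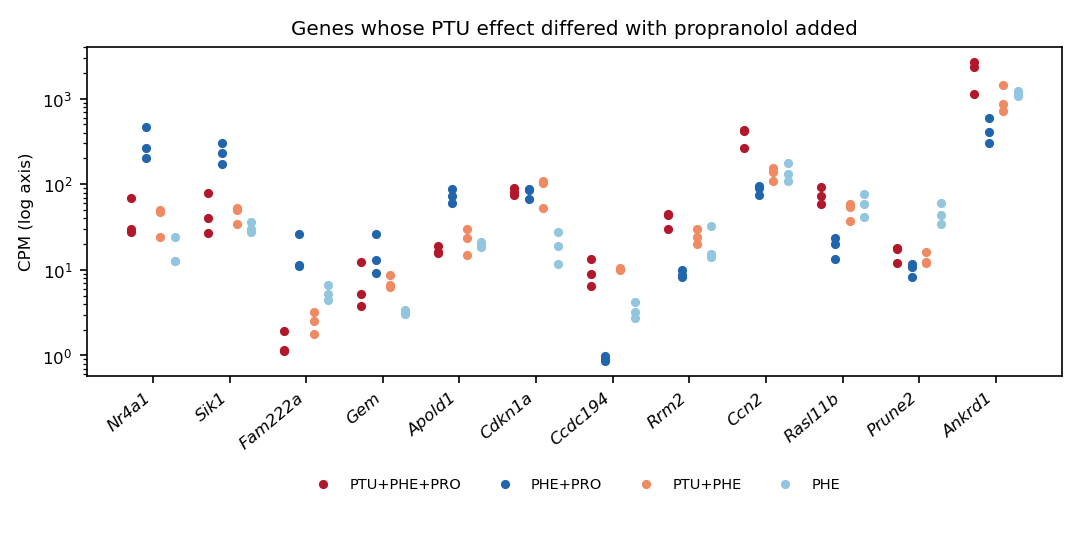
CPM by heart (log axis) of the 12 genes named for a different PTU effect under both blockers and under phenoxybenzamine alone; each point is 1 heart, with 3 hearts for each of 4 groups. From the left, the first 6 genes have the lower difference, and in Nr4a1, Sik1 and Apold1 the PHE+PRO hearts lie above the hearts of the other 3 groups.

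Set against PTU given without blockers (PTU over saline, set B), 2842 genes (14.9%) differed, 1337 with a higher and 1505 with a lower value under both blockers. Against PTU under propranolol alone (PTU+PRO over PRO, set B), 2234 (11.7%) differed, 956 higher and 1278 lower. Fits of only the libraries compared called 1256 and 888 genes. Set and blockers cannot be told apart in either test, and the libraries compared also differ in the length trend. It was -0.87 to -0.06 in PTU+PHE+PRO hearts and 0.40 to 0.48 in PTU hearts of set B. In PHE+PRO hearts it was -0.37 to -0.04, and in saline hearts of set B 0.10 to 0.28. Within set A the saline hearts had -0.002, 0.09 and 0.22, PHE hearts -0.66 to -0.29 and PTU+PHE hearts -0.87 to -0.23. The source of this trend was not tested.

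Cell division genes were among those that differed in these tests. Of 36 G2 and M phase genes, 26 had a higher PTU effect under both blockers than without blockers, and 24 a higher one than under propranolol alone, while none differed from the effect under phenoxybenzamine. The median log2 fold change by PTU was 1.59 under both blockers, 0.90 under phenoxybenzamine and 0.43 without blockers. Cdca3, a mitotic entry gene, had 21.4, 41.6 and 24.3 CPM in PTU+PHE+PRO hearts, against 3.41, 4.86 and 3.92 CPM in PHE+PRO hearts, and 5.31, 4.72 and 5.85 CPM in PTU hearts, against 4.79, 3.92 and 2.06 CPM in saline hearts (difference 2.28 ± 0.47, adjusted p = 0.0040). With only the libraries compared these counts were 16 and 29. The count of 26 was 12 without saline heart 1 of set B, and that of 24 was 13 without PTU+PRO heart 3. Of 34 ribosomal protein genes, 8 had a higher effect than without blockers, but 1 with only the libraries compared and none without PTU heart 2 of set B. Complex I genes differed in no case, though 11 of 32 fell under both blockers and 30 of 32 without blockers.

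**Figure D4:**
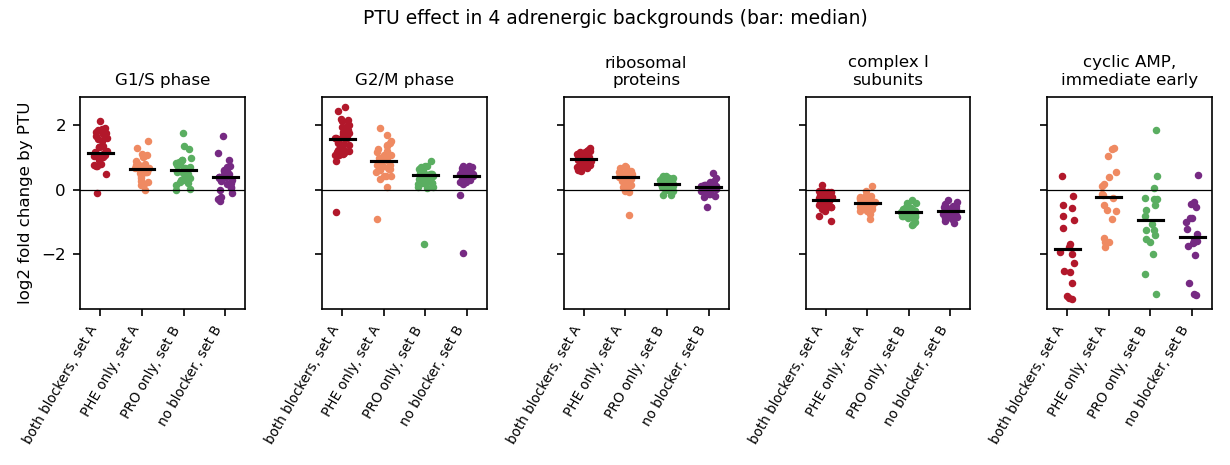
Log2 fold change by PTU (vertical axis) of the members of 5 gene lists in 4 adrenergic backgrounds, each point a gene and each bar a median. In G2 and M phase genes the medians are 1.59 under both blockers, 0.90 under phenoxybenzamine and 0.43 without blockers, and in immediate early genes -1.85, -0.21 and -1.46.

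Single genes of lipid use and of load also differed from the set B effects. Angptl4, an inhibitor of lipoprotein lipase, had 25.8, 96.1 and 79.1 CPM in PTU+PHE+PRO hearts, against 16.8, 19.7 and 12.8 CPM in PHE+PRO hearts, and 7.21, 10.5 and 7.63 CPM in PTU hearts, against 30.2, 25.9 and 14.7 CPM in saline hearts. Its effects were thus of opposite sign, 2.02 (adjusted p = 0.0017) and -1.48 (adjusted p = 0.023), and the difference was 3.50 ± 0.67 (adjusted p = 0.0031). Acot1, an acyl-CoA thioesterase gene, rose by 2.78 (adjusted p = 5.5e-07) under both blockers and changed by -0.23 (adjusted p = 0.62) without them, but reads can be shared with its near-identical neighbour Acot2. Nppb rose by 1.75 (adjusted p = 0.0045) under both blockers and fell by 1.38 (adjusted p = 0.028) under propranolol alone, a difference of 3.14 ± 0.66 (adjusted p = 0.0063). Within set A, the PTU effect on Ppargc1a, a coactivator gene of mitochondrial biogenesis, differed from that under phenoxybenzamine (adjusted p of the difference 0.030). Ppargc1a fell by 0.81 ± 0.16 (adjusted p = 0.00023) under both blockers, and its effect was 0.18 under phenoxybenzamine.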

How the data were processed

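The authors deposited counts of reads per gene for 27 hearts. Per the submitters' processing notes the tools were cutadapt 1.9, STAR 2.5.2b and featureCounts 1.5.1, with build mm10; per the labels' protocols RNA came from Trizol and the libraries from a TruSeq kit without strand. Settings for reads that match several genes are not given in the sources used here. From the deposited counts, genes were filtered with filterByExpr by group (minimum count 10, total 15), scaled by TMM and fitted with 9 group means over 27 libraries in edgeR 4.0.16 (limma 3.58.1, R 4.3.3), using the robust quasi-likelihood test with Benjamini-Hochberg adjustment over all 19119 genes and a threshold of 0.05. Errors of log2 fold changes are standard errors, and CPM use TMM library sizes. Differences between PTU effects were contrasts in the same model. The fit was also tested on simulated data. Shares of reads per kilobase were compared by exact permutation. DESeq2 1.42.0 and other fits served as alternatives. Depths of 30791885 to 62134596 reads limit the precision, with 3 hearts a group.

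Genes were named by rule. Among called genes with non-overlapping hearts that averaged 5 CPM or more, these were the 12 largest rises and falls and the 6 largest gains and losses in CPM. From each gene list up to 4 called members of smallest p were named, as well as members of the thyroid hormone, myosin and troponin lists. For each difference of PTU effects these were the 6 largest each way. Some genes that the rule names are not reported here. Members and lists were chosen with earlier results of these data known. Coordinates are GRCm38 (mm10).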

Additional observations from a re-analysis of the deposited data

Results flagged for a closer look

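The PTU effect under both blockers was tested against the PTU effect in each of the other adrenergic backgrounds, and the genes named here passed that test of the difference (edgeR's quasi-likelihood test, adjusted p under 0.05). Values are log2 differences, PTU effect under both blockers minus the other PTU effect. Against phenoxybenzamine alone the difference was positive for Ankrd1 (2.42), Prune2 (2.40), Rasl11b (2.23), Ccn2 (2.15), Rrm2 (1.87), Ccdc194 (1.78), Krt18 (1.77) and Pcbd1 (1.57). It was negative for Nr4a1 (-4.17), Sik1 (-2.81), Fam222a (-2.38), Gem (-2.37), Apold1 (-2.33) and Cdkn1a (-2.15). Without PTU+PHE heart 1, 69 genes in all differed in this test, and without PTU+PHE+PRO heart 1 there were 633. With each of the 12 libraries left out in turn, 6 of these 14 genes were called every time, and Ccn2, Rrm2, Ccdc194, Krt18, Pcbd1, Nr4a1, Sik1 and Gem missed the threshold at least once.

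Against PTU without blockers, where set and blockers cannot be told apart, the difference was positive for Angptl4 (3.50), Lars2 (3.2), Mir6236 (3.04), Acot1 (3.01), Cdca3 (2.28), Nkd2 (2.07), Krt18 (1.79), Pcbd1 (1.57) and Cited1 (1.17). It was negative for Fam222a (-3.11), Nr4a2 (-2.86), Adamtsl2 (-2.57), Itgb6 (-2.56), Klhl38 (-2.46), Zfp469 (-2.45), Tuba8 (-1.96), Smco1 (-1.47), Lrrc15 (-1.47), Mir208b (-1.34), Myh6 (-0.92) and Myh7 (-0.82). The values of Lars2 and Mir6236 came to 1.39 and 1.58, no longer called, without PTU+PHE+PRO heart 3. That of Nr4a2 came to -1.05, no longer called, without PHE+PRO heart 2b, which had 47.3 CPM against 4.05 and 6.91 CPM in the other PHE+PRO hearts. Tuba8 came to -1.23, no longer called, without PTU heart 1 of set B, and Lrrc15 to -2.21 without PTU+PHE+PRO heart 1. Cited1, Smco1 and Mir208b also missed the threshold with at least 1 library left out, and the other 14 of the 21 genes did not.

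Against PTU under propranolol alone, again across sets, the difference was positive for Nppb (3.14), Nkd2 (3.00), Zfp871 (2.36), Prkag3 (2.30), Tnfrsf12a (2.25), Cdca3 (2.18), Pcbd1 (1.93), Tnni1 (1.58), Cited1 (1.51) and Tubb2b (0.79). It was negative for Nr4a2 (-3.45), Klhl38 (-2.86), Fam222a (-2.82), Ccrl2 (-2.68), Ddit4 (-2.67), Nr4a1 (-2.62) and Itgb6 (-2.08). Without PHE+PRO heart 2b, Nr4a2 came to -1.64, no longer called, and Ccrl2 to -1.60. Itgb6 came to -3.12 without PTU+PHE+PRO heart 1. The PTU effect on Zfp871 was not called under both blockers (0.63, adjusted p = 0.25) and was -1.73 (adjusted p = 0.0034) under propranolol alone. Zfp871, Ddit4, Nr4a1, Tnni1 and Tubb2b missed the threshold with at least 1 library left out, and 11 of the 17 genes did not in any case. Of 209 further named list members, 10 differed in the test against phenoxybenzamine alone (1.05% of all genes did), 67 against no blockers (14.9% of all genes) and 50 against propranolol alone (11.7% of all genes). Most of these members were chosen by the smallest p of the PTU effect under both blockers, which enters each difference.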

How the results depend on the processing

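The count of 8987 genes called in the comparison was 8993 with RLE size factors, 8157 without a filter, 9236 with DESeq2, 7217 with set A alone, 9024 with sex as a covariate and 9277 with a length offset, and 7804 to 9325 with a heart left out (3838 to 4867 higher, 3948 to 4458 lower). With only the libraries compared it was 5043, 2512 higher and 2531 lower. In the test against phenoxybenzamine alone, DESeq2 called 581 (278 higher, 303 lower), set A alone 11 (4 higher, 7 lower), only the libraries compared 9 (4 higher, 5 lower), and sex as a covariate left 58 higher. With a library left out, the count was 69 to 633 (24 to 233 higher, 45 to 400 lower). Against no blockers, only the libraries compared gave 1256 (567 higher, 689 lower), no filter 841 higher, and a library left out 1626 to 4490 (662 to 2071 higher, 964 to 2419 lower). Against propranolol alone the same settings gave 888 (342 higher, 546 lower), 583 higher, and 1248 to 3728 (456 to 1612 higher, 792 to 2116 lower). The cause was not tested in these cases. Lowest and highest counts came without saline heart 1 and PTU+PHE+PRO heart 1 against no blockers, and without PTU+PRO heart 3 and PTU+PHE+PRO heart 1 against propranolol. In reads not divided by length, the difference in shares was 51.5 percentage points for Tnni1 against 38.1 per kilobase, and 80.98 for Myh7 against 78.4.

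With the replicate block the count was 8787. The numbers are not known to pair the hearts, and deviations of same-numbered hearts correlated at -0.01 (1 with 1), 0.17 (2 with 2a) and -0.05 (2 with 2b).

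Among uncalled genes near 0, signs changed for Tnnc1 (0.0009 with RLE, 0.0009 with DESeq2, 0.0229 with the replicate block, -0.30 to 0.19 with a heart left out), Tpm3 (-0.0145 without a filter, -0.007 with set A alone, -0.0065 with only the libraries compared, -0.18 to 0.18 with a heart left out) and Tnnt3 (-0.0214 with the length offset, -0.21 to 0.47 with a heart left out). With a heart left out, Slc8a1 ranged over -0.29 to 0.52 and Mybphl over -0.75 to 0.074. Depth limits genes with few reads, such as Foxo6os with 3 reads in PTU+PHE+PRO hearts against 1510 in PHE+PRO hearts.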
